A study of Mus musculus with 16 samples.

Results

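Mucins and the other proteins that mucosal epithelia secrete were examined in medullary thymic epithelial cells (mTEC). The group was set by gene symbol and comprised 86 of the 53464 Ensembl genes in the count table. Its members were 13 mucins, 3 trefoil factors, 7 Reg lectins, 14 BPI fold proteins, 35 Scgb1b and Scgb2b secretoglobins, 5 other secretoglobins and 9 further secretory genes (Agr2, Spdef, Fcgbp, Clca1, Zg16, Lyz1, Lyz2, Pigr and Ltf). Symbols with -ps had been dropped. The rule itself uses no measured value.

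The 16 libraries came from 8 mice, each of which gave mature mTEC (CD45- EpCAM+ Ly51- UEA+ MHCII high) and immature mTEC (the same phenotype with MHCII low). There were 2 Rbfox1 tKO mice (Rbfox1 lox/lox with Foxn1 wildtype/cre), 2 Rbfox2 tKO mice (Rbfox2 lox/lox with Foxn1 wildtype/cre), and 2 controls for each, which carried the same floxed alleles with Foxn1 wildtype/wildtype. In the tKO mice, Cre is driven from the Foxn1 locus, which is active in thymic epithelium. No control carried Cre, so an effect of Cre and an effect of the deletion cannot be told apart. Mice were 4 to 6 weeks old per the labels, 10000 cells were sorted per population, and the strain is labelled C57BL/6, whereas the methods give a mixed 129S2/Sv and C57BL/6J background.

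Mucins are long, heavily glycosylated proteins. Some form the gel over airway and gut epithelium, and others are anchored in the cell membrane. Goblet cells co-secrete them with trefoil factors, with the mucus protein Fcgbp and with the lectin Zg16, while Reg lectins and lysozymes act against bacteria, and BPI fold proteins and secretoglobins are products of airway, oral and glandular epithelium. Mature mTEC are known for transcribing genes otherwise restricted to peripheral tissues, which exposes developing T cells to these antigens, and Aire promotes much of this transcription.

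Mature libraries held 3737884 to 4636367 counts (median 4313347) and immature libraries 1506134 to 2430287. The labelled populations were checked against their markers. Aire, measured as CPM (counts scaled to the library total, normalised by TMM), lay at 633 to 1570 in mature and 19.6 to 297 in immature mTEC, and all 5 immature mTEC markers were lower in mature mTEC. Of 7 mature mTEC markers, Aire among them, 5 passed the thresholds given below as higher in control mature mTEC, and none as lower. Their summed level was 10645 to 11557 CPM in control mature and still 5741 to 6395 CPM in control immature mTEC. Rbfox2 fell from 57.5 and 56.6 CPM in Rbfox2 controls to 9.46 and 16.02 CPM in Rbfox2 tKO mature mTEC. Whole-gene counts of Rbfox1 were 33.8 and 29.5 CPM in Rbfox1 tKO against 52.0 and 48.1 CPM in control mature mTEC, but 151 and 153 against 163 and 159 CPM in immature mTEC. Such counts include exons outside the deleted part and so do not check the deletion.

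The immature libraries of the Rbfox2 line stood apart from those of the Rbfox1 line. Aire was at 19.6 to 54.0 CPM in the 4 Rbfox2-line and 211 to 297 CPM in the 4 Rbfox1-line immature libraries. The summed level of 4 fibroblast markers was 1168 to 1690 CPM in the former and 234.8 to 460 CPM in the latter, and that of 2 endothelial markers was 53.4 to 161 CPM and 15.8 to 45.2 CPM. In mature mTEC Aire also differed between the lines, at 633 to 901 CPM in the Rbfox2 line and 1225 to 1570 CPM in the Rbfox1 line. The counts of members called in the maturation comparisons are therefore also given within each line. In bulk samples of sorted cells, fewer cells of a type and less RNA per cell cannot be told apart.

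Secretory genes were detected far more widely in mature than in immature mTEC. At the deposited depth, 65 members had a count in at least 1 mature library and 52 in all 8, against 46 and 27 in immature libraries. To remove the difference in depth, every library was thinned at random to 1506134 counts. Mature libraries then held 53.1 ± 1.25 members with a count (SD, n = 8, range 51 to 55) and immature libraries 32.9 ± 1.46 (SD, n = 8, range 30 to 35). The ranges did not overlap. These were 61.8% and 38.2% of the members, whereas 41.3% and 34.5% of all Ensembl genes were detected. All 13 mucins, 3 trefoil factors, 7 Reg lectins and 14 BPI fold proteins had counts in mature mTEC.

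**Figure D1:**
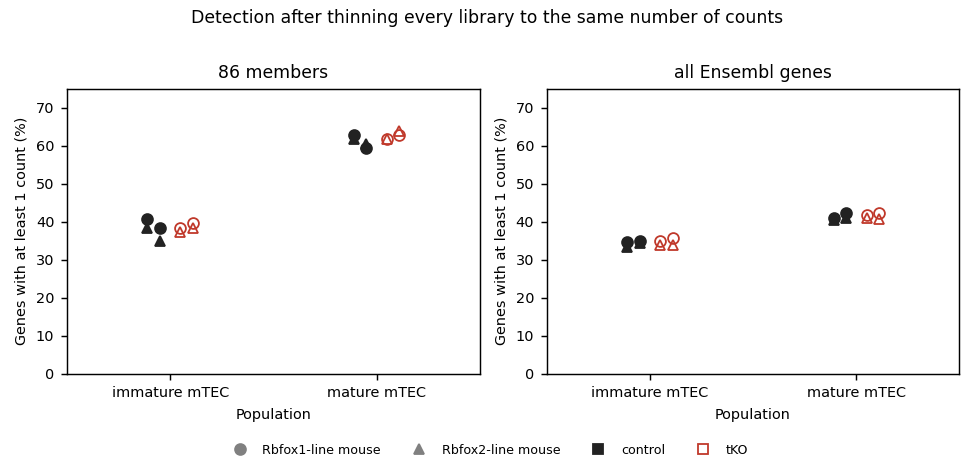
Percentage of the 86 members (left) and of all Ensembl genes (right) with at least 1 count in each library after thinning to 1506134 counts. Points are libraries, with shape for the line and colour for the genotype. The mature libraries lie above the immature ones in both panels, with a wider gap for the members (61.8% against 38.2%) than for all genes (41.3% against 34.5%).

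The Scgb1b and Scgb2b secretoglobins were the exception. The genes of this family encode the subunits of mouse salivary androgen-binding protein, and all 35 lie in 1 cluster at chr7:31263757-34100837 (mm10). Scgb1b21, Scgb2b1, Scgb2b6, Scgb2b10, Scgb2b30 and Scgb2b33 are annotated as pseudogenes. No count in any of the 16 libraries was found for 21 of the 35, among them the pseudogenes Scgb1b21, Scgb2b6, Scgb2b10 and Scgb2b33. Only Scgb1b27 and Scgb2b27 had counts in all 8 mature libraries, with 2 to 8 and 2 to 9 counts, and the cluster's only immature count was 1 count of Scgb1b27. Near-identical copies limit this: 22 of the 35 share at least one 100-base exon window with another gene, and in 8 of them more than 50% of windows are shared, so reads that map to several copies may not have been counted.

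RefSeq promoters were at hand for 66 members, as 250 bases before to 50 after the start (GRCm38.p6). The letters TATAAA were present on either strand in 31 of these (47.0%), against 14.2% of all 27025 promoters. With the first base and last base of the letters kept between 45 and 16 bases before the start on the gene's own strand, where a TATA box usually lies, the counts were 16 of 66 (24.2%) and 2.36% of all promoters. Of the 30 promoters of members tested below, 7 (23.3%) had it there, against 2.24% of those of all genes tested. The Scgb1b and Scgb2b genes, mostly without a count here, held 8 of the 16, Reg lectins 4, and BPI fold proteins and mucins 2 each. A match is a description of the letters and not of use.

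The 60 bases before the start are shown, with TATAAA in capitals, for examples picked because they have these letters, together with Fcgbp and Lyz1, abundant members that do not. How many of those shown have the letters is thus set by the choice. They are Reg3g (chr6:78468875-78468934, minus strand), Reg3b (chr6:78370825-78370884, plus), Reg1 (chr6:78425923-78425982, plus), Bpifa1 (chr2:154142820-154142879, plus), Bpifa5 (chr2:154162547-154162606, plus), Muc1 (chr3:89228996-89229055, plus), Muc4 (chr16:32735826-32735885, plus), Fcgbp (chr7:28071176-28071235, plus), Lyz1 (chr10:117292869-117292928, minus) and, as a gene without a count in any library, Scgb2b10 (chr7:32093953-32094012, minus).
Reg3g: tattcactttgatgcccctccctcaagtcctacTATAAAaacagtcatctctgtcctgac
Reg3b: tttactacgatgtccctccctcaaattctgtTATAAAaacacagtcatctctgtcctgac
Reg1: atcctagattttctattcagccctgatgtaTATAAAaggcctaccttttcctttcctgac
Bpifa1: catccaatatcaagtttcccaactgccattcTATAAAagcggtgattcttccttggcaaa
Bpifa5: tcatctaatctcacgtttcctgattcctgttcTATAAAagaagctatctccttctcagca
Muc1: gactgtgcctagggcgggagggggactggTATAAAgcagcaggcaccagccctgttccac
Muc4: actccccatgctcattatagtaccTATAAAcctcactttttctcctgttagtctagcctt
Fcgbp: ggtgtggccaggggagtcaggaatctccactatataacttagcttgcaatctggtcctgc
Lyz1: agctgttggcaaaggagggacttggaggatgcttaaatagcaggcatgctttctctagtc
Scgb2b10: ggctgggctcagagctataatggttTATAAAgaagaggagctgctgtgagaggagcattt
The Scgb2b15 and Scgb2b17 stretches do not differ from that of Scgb2b10 at any base, and the Lyz2 stretch differs from that of Lyz1 at 1 of 60 bases. Scgb2b10 is annotated as an unprocessed pseudogene. Fcgbp and Lyz1 do not have the exact letters in this stretch. The RefSeq starts of Reg1 and Reg3b used here lie inside the longer gene spans of GENCODE.

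Among the members, Fcgbp (chr7:28071236-28120862), a large secreted protein of mucus that binds mucins, had by far the most counts. It took 0.817% and 0.614% of the library in mature mTEC of the 2 Rbfox1 controls and 0.843% and 0.764% in the 2 Rbfox2 controls. In immature mTEC of the same mice it took 1.07%, 0.811%, 1.38% and 1.32%. The tKO mice had 0.721%, 0.674%, 0.910% and 0.797% in mature and 0.963%, 0.944%, 1.57% and 1.70% in immature mTEC. In each of the 8 mice it was thus higher in immature than in mature mTEC, and it was higher in the immature libraries of the Rbfox2 line. It made up 72.8% ± 1.15 of all member counts in control mature and 94.2% ± 1.92 in control immature mTEC (SD, n = 4 each). The other 85 members together took 0.283% ± 0.0301 of a control mature and 0.0676% ± 0.0130 of a control immature library (SD, n = 4).

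Levels between genes were compared per kb of exon. In control mature mTEC, Fcgbp stood at 708 ± 105 CPM per kb and Reg3g at 347 ± 58.2 (SD, n = 4). Lyz1 (216 ± 29.0), Lyz2 (170 ± 29.6), Bpifa1 (109 ± 27.5), Tff3 (96.1 ± 10.1), Muc1 (73.8 ± 8.10) and Scgb1a1 (65.0 ± 20.2) followed. The mean ± SD intervals overlapped between neighbours for Lyz1 and Lyz2, Bpifa1 and Tff3, and Muc1 and Scgb1a1. They did not overlap for the other neighbours in this list, though values of single mice may. In control immature mTEC the order was Fcgbp (1123 ± 294), Reg3g (96.2 ± 19.3) and Bpifa1 (43.1 ± 6.95), whose mean ± SD intervals did not overlap. Ltf (26.2 ± 15.1), Lyz1 (18.7 ± 9.82), Scgb1a1 (18.5 ± 4.53), Tff3 (18.3 ± 13.9) and Pigr (16.99 ± 4.21) came next, each interval overlapping that of its neighbour. The same 2 genes therefore led in both populations.

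**Figure D2:**
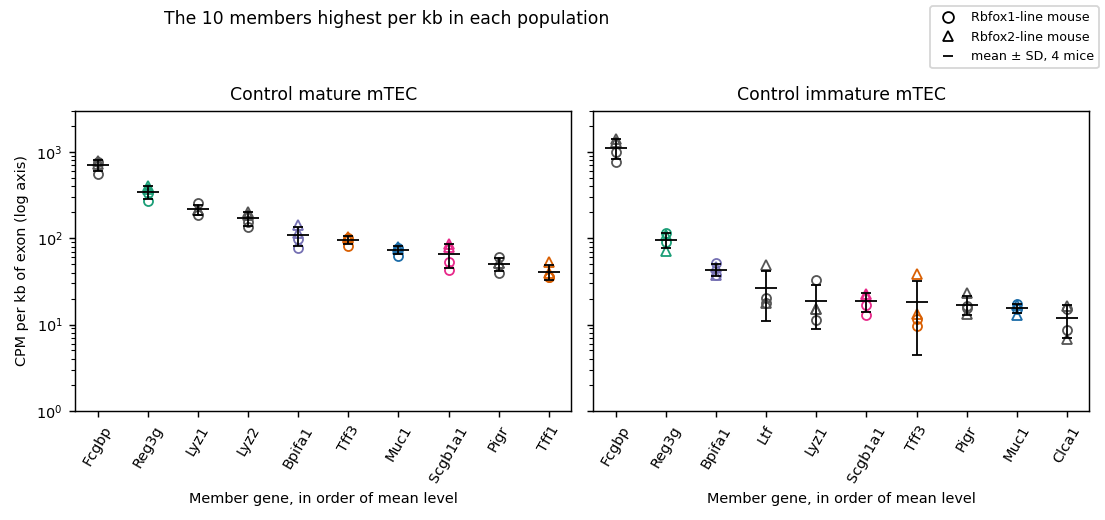
CPM per kb of exon (log axis) of the 10 members with the highest mean in control mature (left) and control immature (right) mTEC. Points are the 4 control mice (circles, Rbfox1 line; triangles, Rbfox2 line), and bars are mean ± SD. Fcgbp leads both panels, at 708 and 1123, and Reg3g is next, at 347 and 96.2.

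**Figure D3:**
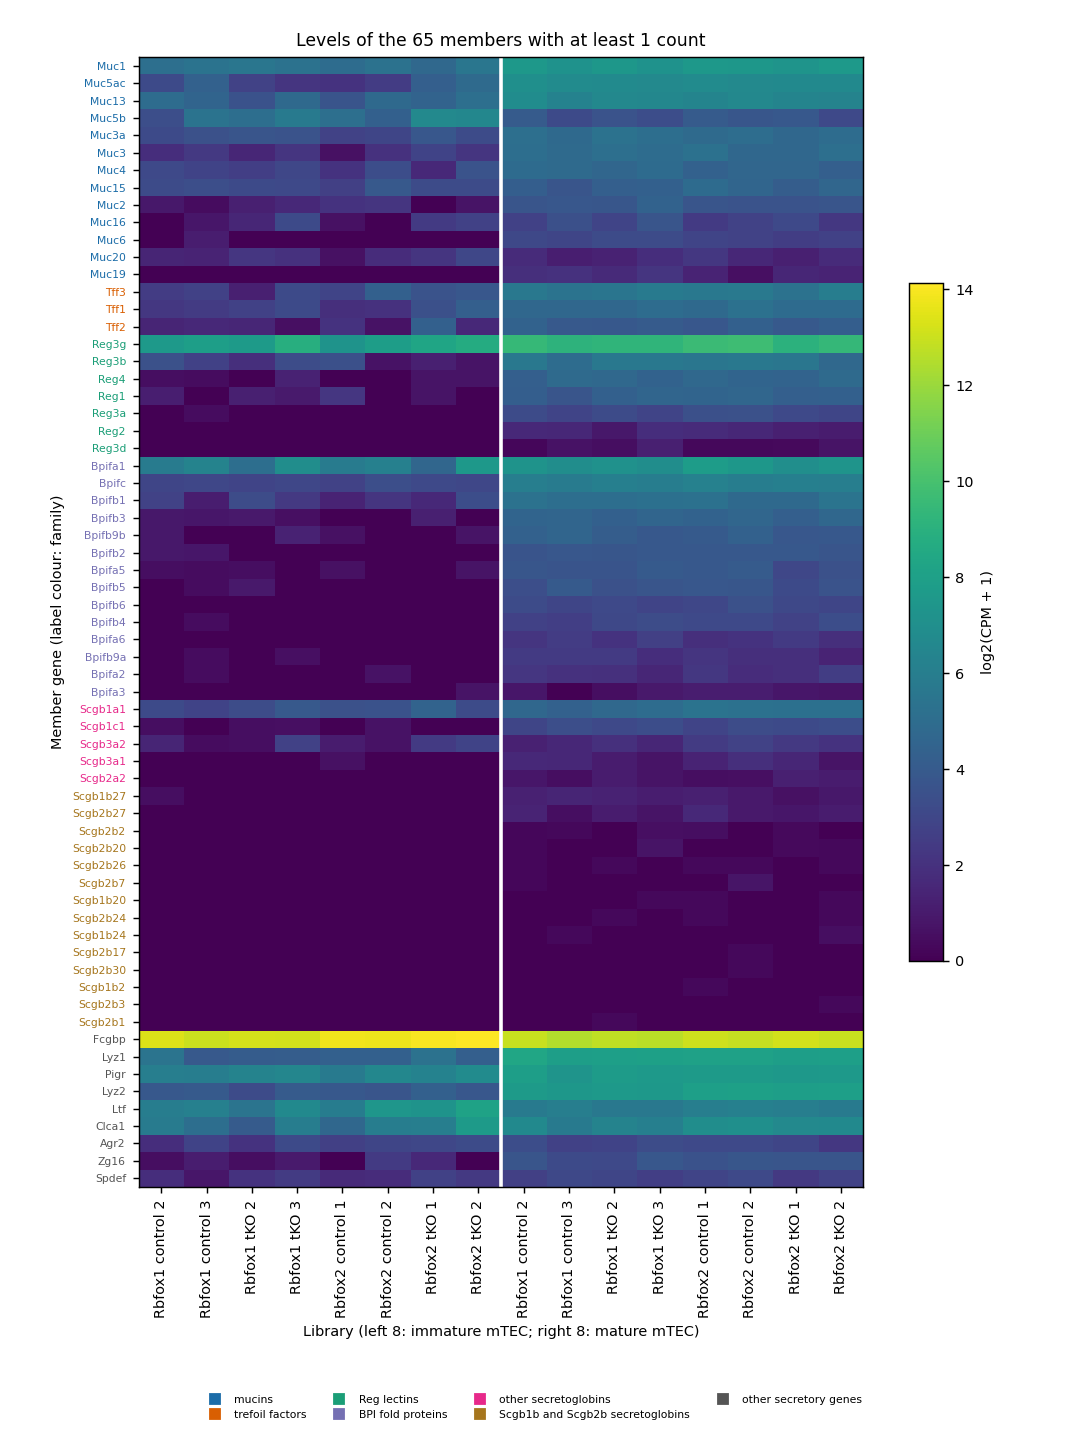
Levels of the 65 members with at least 1 count, as log2(CPM + 1), in all 16 libraries, grouped by family. The 8 immature libraries are on the left of the white line and the 8 mature ones on the right. Most rows are brighter on the right, while Fcgbp is bright throughout, and Muc5b and Ltf are brighter in part of the immature libraries.

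Mature was compared with immature mTEC in control mice to ask how these genes differ with mTEC maturation. The line of the mouse was a covariate, and edgeR's quasi-likelihood test was run over 15357 genes. A call needed a log2 difference beyond 1 in either direction together with a p, adjusted by Benjamini-Hochberg, below 0.05. The low-count filter let 40 of 86 members through, of which 36 were higher in mature mTEC, 1 was lower and 3 were not called. Over all genes tested, 23.7% were higher and 10.8% lower. The median log2 difference was 3.05 over the 40 members and 0.02 over all genes tested. Members with hardly any immature counts passed the filter only through the mature libraries and had to differ, so these figures cannot be read as a property of all 86. With at least 10 counts demanded in every library, 13 of 16 members were higher and none lower. Within the Rbfox1 line alone, 36 members were higher and 1 lower, and within the Rbfox2 line alone, 37 were higher and none lower. The 23.7% and 10.8% belong to the main fit, and shares over all genes in these other fits are not given here. All 36 members called higher in the main fit were higher in mature mTEC in each of 4 mice. Of the 40 members tested, called or not, the mature range lay wholly above the immature one for 34 and wholly below for 0. Over all genes tested, the mature range lay wholly above the immature one for 31.5% and wholly below for 25.7%.

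Of the gel-forming mucins, Muc5ac, Muc2 and Muc6 were higher in mature mTEC. Muc5ac, the main mucin of airway surface and stomach, was at 129, 113, 114 and 98.3 CPM in control mature and at 8.11, 19.5, 3.25 and 4.80 CPM in control immature mTEC. The groups did not overlap, and the log2 difference was 3.61 ± 0.24 (SE; adjusted p = 9.41e-09). Muc2, the gut mucin, differed by 2.74 ± 0.38 and the gastric Muc6 by 4.11 ± 0.57 on the log2 scale, the latter with 3 counts in all over the control immature libraries. Muc19, a salivary mucin that was not tested, had 2 to 14 counts in control mature and 0 in control immature libraries, at least 5.83-fold higher when set against a floor of 3 counts over the group.

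Muc5b, a gel-forming mucin of airway glands, was the only member called lower. Control mature mTEC held 15.4, 7.91, 15.4 and 12.7 CPM and immature mTEC of the same mice 9.39, 39.9, 35.2 and 19.2 CPM. Thus 3 mice had more in immature and 1 Rbfox1 control had more in mature mTEC, and the groups overlapped. The log2 difference was -1.01 ± 0.34 (SE; edgeR, adjusted p = 0.0173). This call is at the edge of the fold threshold. It was lost with the mouse as a block (log2 difference -0.94), in DESeq2 (-0.96), in the Rbfox2 line alone (-0.94), after thinning (-0.71) and without Rbfox1 control replicate 3 (-0.46) or Rbfox2 control replicate 1 (-0.93).

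Of the membrane mucins, 7 of the 8 were tested and all 7 were called higher. Muc1, a signalling mucin of most glandular epithelia, was at 182, 145, 187 and 178 CPM in control mature and at 35.4, 40.7, 30.3 and 39.0 CPM in control immature mTEC. The groups lay far apart, with a log2 difference of 2.26 ± 0.11 (SE; edgeR, adjusted p = 6.35e-10). Muc16, Muc3, Muc13, Muc4, Muc3a and Muc15 differed by 4.09, 3.58, 2.02, 2.0, 1.98 and 1.11 on the log2 scale. Muc16 had 116 counts over the control mature and 3 over the control immature libraries. It thus passed the filter through the mature libraries and was bound to differ. The Muc15 ranges overlapped (12.4 to 30.0 CPM and 5.41 to 14.4 CPM), and it was not called in the Rbfox1 line alone (log2 difference 0.77) or without Rbfox2 control replicate 1 (0.74). Muc20 was not tested. It overlaps the exons of Muc4 on the opposite strand over 15.6% of its exon length, and the sources used here do not give whether strand was used in counting.

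All 3 trefoil factors, small peptides secreted together with mucins, were higher in mature mTEC. Tff1 was at 25.1, 25.0, 27.7 and 37.0 CPM in control mature and 3.84, 4.48, 2.71 and 3.002 CPM in control immature mTEC, a log2 difference of 2.97 ± 0.23 (SE; edgeR, adjusted p = 4.63e-08). Tff2 and Tff3 differed by 3.11 ± 0.33 and 2.50 ± 0.25 on the log2 scale. All of these ranges were separate. The genes lie together at chr17:31125306-31165277, and Tff1 shares 31.4% of its exon bases with an antisense transcript, Gm15318.

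All 5 Reg lectins tested were higher. Reg3g, an antibacterial lectin that binds peptidoglycan, was at 714, 570, 793 and 855 CPM in control mature and at 193, 241, 150 and 230 CPM in control immature mTEC. The lowest mature value was more than the highest immature value, with a log2 difference of 1.85 ± 0.14 (SE; edgeR, adjusted p = 3.95e-08). Reg4, expressed by enteroendocrine and goblet cells of the gut, had 425 counts over the 4 control mature libraries and 2 over the 4 immature ones, a CPM ratio of 103 (95% counting interval 28.4 to 856). Such intervals and floors cover counting error only. Reg3a had 155 and 1 counts over the same groups (ratio 75.3, 95% counting interval 13.3 to 2995). Like Reg4, it passed the filter through the mature libraries and was bound to differ. Reg1 and Reg3b differed by 3.91 and 2.68 on the log2 scale. Reg2, not tested, had 8 to 10 counts in control mature and 0 in control immature libraries. All but Reg4 lie within 98.2 kb on chromosome 6.

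All 10 BPI fold proteins tested, lipid-binding proteins of saliva and airway fluid, were higher in mature mTEC, with log2 differences from 1.31 to 7.73. In 7 of them the 4 control immature libraries held 0 to 4 counts in all, so that these passed the filter through the mature libraries and their fitted values were bound to be large. Bpifb6 had 144 counts over the control mature libraries and 0 over the immature ones, at least 23.3-fold higher against a floor of 3 counts over the group. Bpifb5 had 224 and 1 counts (ratio 109, 95% counting interval 19.3 to 4319), and Bpifb4 116 and 1 (ratio 56.4, interval 9.92 to 2246). Bpifc, which lies apart from the cluster, was at 64.0, 57.9, 71.9 and 61.3 CPM in control mature and 6.83, 6.92, 5.95 and 9.61 CPM in control immature mTEC, a log2 difference of 3.14 ± 0.15 (SE; edgeR, adjusted p = 4.39e-10).

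Bpifa1, the most abundant BPI fold protein of the upper airway, differed least. It was at 151, 120, 220 and 180 CPM in control mature and 57.2, 79.8, 58.5 and 70.8 CPM in control immature mTEC, and the ranges did not overlap (log2 difference 1.31 ± 0.15, SE; edgeR, adjusted p = 2.28e-06). In the Rbfox1 line alone the difference was just under 1, and it was not called. Bpifb9b (5.66 on the log2 scale) and Bpifb9a share 53.8% and 46.9% of their 100-base exon windows with another gene, each other, so the split between them is uncertain. These 13 genes lie within 446 kb on chromosome 2.

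Of the other secretoglobins, Scgb1a1, the club cell protein of the airway, was at 25.5, 20.3, 40.7 and 37.2 CPM in control mature and 8.11, 6.10, 10.3 and 10.8 CPM in control immature mTEC, a log2 difference of 1.81 ± 0.17 (SE; edgeR, adjusted p = 3.19e-07). Scgb1c1, an olfactory mucosa gene, had 140 and 2 counts over the control groups (ratio 34.0, 95% counting interval 9.24 to 284). Both were higher in mature mTEC, in each of the 4 mice.

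Among the further secretory genes, the lysozymes stood out. Lyz2, the lysozyme of myeloid cells, was at 205.4, 179, 248 and 264 CPM in control mature and 13.7, 15.1, 14.1 and 12.01 CPM in control immature mTEC. With a log2 difference of 4.002 ± 0.12 (SE; edgeR, adjusted p = 7.69e-12), it had the lowest p of all members. Lyz1, the lysozyme of Paneth cells, was at 324, 237, 267 and 265 CPM against 41.8, 14.2, 18.9 and 19.2 CPM, a log2 difference of 3.54 ± 0.21. The ranges were separate for both. The 2 genes share 2.06% and 1.97% of their exon windows.

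Myeloid markers moved in the same direction as the lysozymes. Over 7 neutrophil markers, the summed level was 295 to 313 CPM in control mature and 7.58 to 33.4 CPM in control immature mTEC, and all 5 markers that were tested were higher. Of this list Elane and Retnlg were at 0 in every immature library and at no more than 1.47 and 1.28 CPM in control mature ones. Over 8 markers of macrophages and dendritic cells the range was 123.3 to 140 CPM against 41.1 to 54.6 CPM, with 5 of 6 tested markers higher and 1, Mpeg1, lower, and Itgam at 0 in all control immature libraries. Markers of thymocytes and leukocytes (47.7 to 57.8 CPM against 3.42 to 23.2 CPM, 3 of 3 tested higher), B cells (12.4 to 20.8 CPM against 0 to 2.56 CPM, 2 of 2 higher) and microfold cells (442 to 635 CPM against 271 to 362 CPM, 2 of 4 higher) also lay higher in control mature mTEC. Other lists went the other way. Of thymic tuft cell markers (141 to 223 CPM against 388 to 739 CPM), 4 of 5 were lower in control mature mTEC. Of fibroblast markers 3 of 4 tested were lower, and of endothelial markers 2 of 2. No tested marker of cortical thymic epithelium or ciliated cells was called. The part of any of these cell types in the levels of the lysozymes and the other members was not tested.

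Pigr, the receptor that carries IgA across mucosal epithelium, was higher by 1.61 ± 0.15 on the log2 scale, and Zg16, a goblet cell lectin, by 2.996 ± 0.48. Spdef, a transcription factor of goblet cells, was higher by 1.81 ± 0.34, at 5.48 to 7.84 CPM against 0.814 to 2.56 CPM. Clca1, a metalloprotease of mucus, was higher by 1.18 ± 0.25, but its ranges overlapped (55.5 to 131 CPM and 25.4 to 62.4 CPM). It was not called in the Rbfox1 line alone or without Rbfox2 control replicate 1, at 0.83 and 0.91 on the log2 scale.

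The other 3 members tested were not called. For Fcgbp the log2 difference was -0.62 ± 0.11 (SE; edgeR, adjusted p = 0.000208), under the fold threshold. For Agr2, a disulfide isomerase needed to fold mucins, it was 0.59 ± 0.30 (adjusted p = 0.0967, same test), and for Ltf, the iron-binding lactoferrin, -0.44 ± 0.23 (adjusted p = 0.0993, same test). Ltf was at 55.4 to 68.8 CPM in control mature and at 61.9, 70.0, 61.2 and 168 CPM in control immature mTEC, so that 1 Rbfox2 control library lay above the others.

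**Figure D4:**
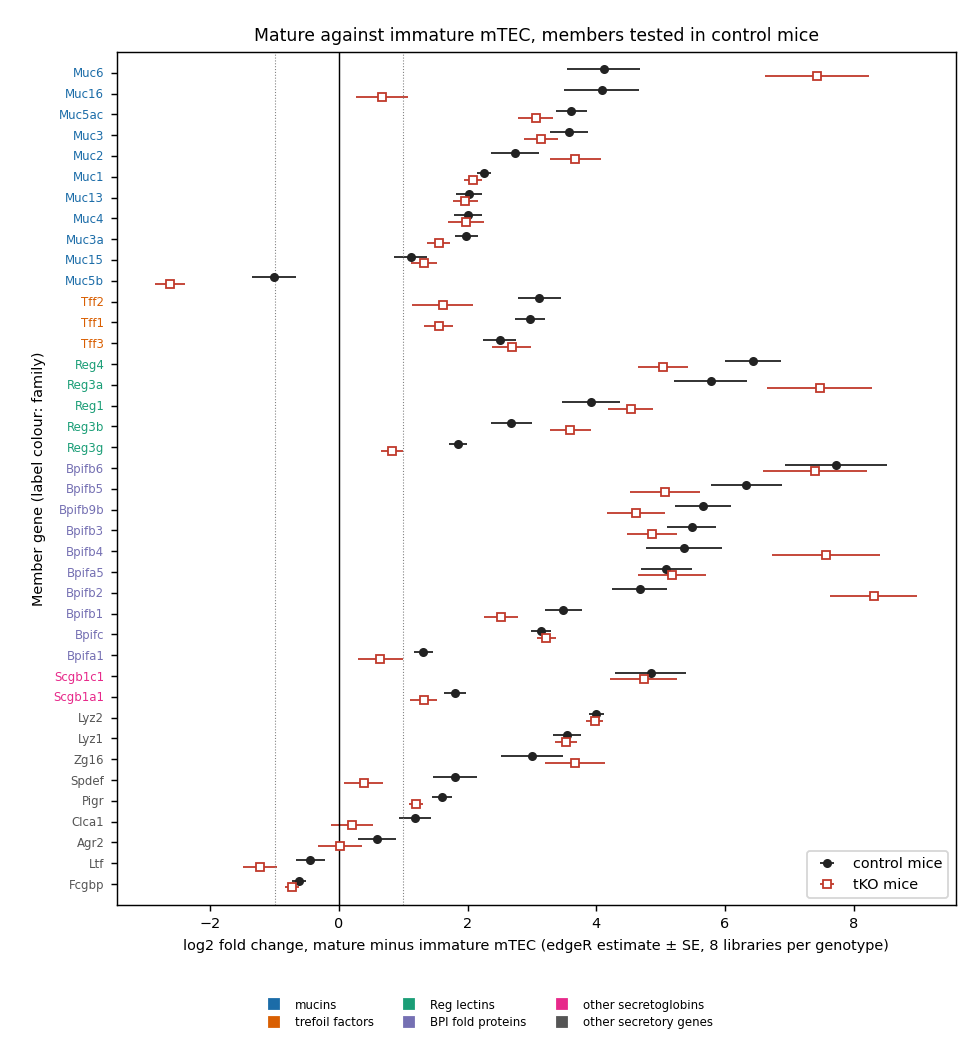
Log2 fold change of mature over immature mTEC (edgeR estimate ± SE) for the 40 members tested in control mice, in control mice (filled circles) and tKO mice (open squares), 8 libraries each, grouped by family. Dotted lines mark the fold threshold of 1. Most points lie right of it, and Muc5b lies left of 0 in both genotypes, at -1.01 and -2.63. Bpifb6 in both genotypes, and Muc6, Reg3a, Bpifb2 and Bpifb4 in tKO mice, had no immature count, so that their positions are fitted values and not measured ratios.

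A list of 54 genes that make or regulate mucus secretion in general was also compared. Of these, 44 were tested, of which 18 were higher and 3 lower in control mature mTEC (median log2 difference 0.41). By role, 5 of 11 transcription factors, 2 of 6 folding factors, 6 of 20 mucin glycosylation enzymes and 5 of 7 ion transporters were higher, beside 23.7% of all genes tested. The largest differences were those of the bicarbonate channel Best2 (4.27 ± 0.54), the anion exchanger Slc26a4 (4.09 ± 0.37) and the intestinal transcription factor Cdx2 (3.45 ± 0.34). The endoplasmic reticulum-bound transcription factor Creb3l4 (-3.25 ± 0.27), the sulfotransferase Chst5 (-2.62 ± 0.39) and the chloride importer Slc12a2 (-1.25 ± 0.08) were lower.

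The same comparison was made in the 4 tKO mice. Here 41 members were tested, of which 31 were higher and 2 lower, where 23.2% of all 15189 genes tested were higher and 11.5% lower. Of the 31 called higher, only Tff2 had mature and immature ranges that overlapped. Of the 41 tested, called or not, the mature range lay wholly above for 31 and wholly below for 1. Over all genes tested these shares were 31.1% and 24.0%. Of the 54 secretory machinery genes, 43 were tested, with 16 higher and 5 lower. With at least 10 counts demanded in every library, 10 of 16 members were higher and 2 lower. Within the Rbfox1 line alone 32 members were higher and 1 lower, and within the Rbfox2 line alone 30 and 2. The 23.2% and 11.5% belong to the main fit in tKO mice and not to these other fits.

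Muc5b was called lower again. It was at 11.5, 9.14, 13.8 and 7.55 CPM in tKO mature and at 33.8, 52.5, 101 and 92.1 CPM in tKO immature mTEC. The groups did not overlap (log2 difference -2.63 ± 0.23, SE; edgeR, adjusted p = 2.81e-08). The tKO minus the control log2 fold change of Muc5b was -1.62 ± 0.46, with an adjusted p of 1 in edgeR's quasi-likelihood test. Ltf had a log2 difference of -1.23 ± 0.26, a call that was lost in the Rbfox1 line alone (-0.51) and without Rbfox2 tKO replicate 2 (-0.76). Its ranges overlapped, at 49.5 to 64.3 CPM in tKO mature and 42.6 to 277 CPM in tKO immature mTEC. In 1 of the 4 tKO mice Ltf was higher in mature mTEC. The lysozymes and Bpifc differed by 3.98 ± 0.14 (Lyz2), 3.53 ± 0.17 (Lyz1) and 3.22 ± 0.15 (Bpifc) on the log2 scale.

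For 8 members the tKO difference was not called. Reg3g was at 598, 607, 543 and 667 CPM in tKO mature and at 209, 456, 311 and 411 CPM in tKO immature mTEC. The groups did not overlap, but the log2 difference of 0.83 ± 0.16 lay under the fold threshold. Log2 differences were also given by Bpifa1 (0.64), Muc16 (0.67), Spdef (0.38), Clca1 (0.20), Agr2 (0.02), Scgb3a2 (-0.41) and Fcgbp (-0.73), none of them a call. Bpifa1 was called without Rbfox2 tKO replicate 2 (1.17), whose immature library held 181 CPM against 24.4 to 119 CPM in the other 3.

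The difference of the maturation effect between control and tKO mice was tested itself, as an interaction over all 16 libraries. No gene passed an adjusted p under 0.05 (0% of 16454). In edgeR's quasi-likelihood test 8 of 44 members had an unadjusted p under 0.05, beside 4.11% of all genes tested. The members with the lowest p were Reg3g (-1.03 ± 0.24), Muc16 (-3.41 ± 0.88) and Tff1 (-1.43 ± 0.37), given as the tKO minus the control log2 fold change. All members had an adjusted p of 1 in edgeR, which does not show that the genotypes act alike.

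The tKO and control mice were compared to ask whether loss of either splicing factor changes these genes. No member was called in mature mTEC, where 47 were tested among 18021 genes. In edgeR's quasi-likelihood test 3, 4 and 4 members had an unadjusted p under 0.05 for Rbfox1, Rbfox2 and both lines together, and DESeq2 called none and had 0, 3 and 4. Over all genes, 0.0166%, 0.0277% and 0.0166% were called, and 3.35%, 5.34% and 4.49% had an unadjusted p under 0.05 in edgeR.

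Reg3g came nearest to a call in Rbfox2 tKO mature mTEC. It was at 543 and 667 CPM in the tKO and at 793 and 855 CPM in the control mice, and the pairs did not overlap (log2 difference -0.45 ± 0.10, SE; edgeR, adjusted p = 0.234). Bpifa1 (-0.52 ± 0.13) and Bpifa5 (-0.74 ± 0.25) came next. In Rbfox1 tKO mature mTEC the lowest p were those of Reg1 (0.52 ± 0.20), Bpifb9b (-0.49 ± 0.20) and Ltf (-0.28 ± 0.13), all with an adjusted p of 0.9996 in edgeR. Over both lines they were those of Reg3g (-0.27 ± 0.08), Bpifb9b (-0.43 ± 0.14) and Bpifa1 (-0.29 ± 0.10). The comparison over both lines uses the same mice as the 2 single ones.

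In immature mTEC, where 24 members were tested among 13060 genes, none was called either. Unadjusted p under 0.05 were found for 3, 9 and 6 members with edgeR for Rbfox1, Rbfox2 and both lines, and for 2, 6 and 6 with DESeq2, which also called none. Over all genes, 0.0306%, 0.0536% and 0.0306% were called, and 5.90%, 6.25% and 7.47% had an unadjusted p under 0.05 in edgeR. In Rbfox2 tKO mice, 20 of the 24 log2 differences were above 0, with a median of 0.59, while the median over all genes tested was 0.00. This was the widest shift of the members' median in the 6 comparisons.

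Muc5ac, Muc5b and Tff1 had the lowest p in Rbfox2 tKO immature mTEC. Muc5ac was at 18.2 and 28.4 CPM in the tKO and at 3.25 and 4.80 CPM in the control mice (log2 difference 2.54 ± 0.49, SE; edgeR, adjusted p = 0.0784). Muc5b was at 101 and 92.1 CPM against 35.2 and 19.2 CPM (1.82 ± 0.38, adjusted p = 0.127, same edgeR test). Tff1 was at 9.78 and 18.7 CPM against 2.71 and 3.002 CPM (2.31 ± 0.51, adjusted p = 0.153, same edgeR test). In all 3, both tKO values lay above both control values, yet none passed the threshold. The other gel-forming mucins were too low to test: Muc2 had 0 and 1 counts in the tKO and 6 and 6 in the control mice, and Muc6 and Muc19 had 0 in all 4. Muc5b was called with sex as a covariate (log2 difference 1.88) and with the mouse number, which sex follows within a line, as a block (1.84). Without the low-count filter 6 members were called, Muc5ac, Muc5b, Tff1, Tff2, Clca1 and Muc16, all higher in tKO. There the Muc5b estimate hardly moved (1.79) while its adjusted p in edgeR fell to 4.16e-15. The share of all genes called without the filter is not given here, so these 6 calls add no evidence.

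Markers of some other cell types, but not of all, were also higher in these tKO libraries. The fibroblast markers summed to 1332 and 1690 CPM in Rbfox2 tKO and to 1168 and 1311 CPM in Rbfox2 control immature libraries, and the endothelial markers to 113 and 161 CPM and to 53.4 and 95.3 CPM. The sum of 5 microfold cell markers was 349.9 and 411 CPM in tKO and 271 and 298 CPM in control libraries, and that of the 8 macrophage and dendritic cell markers was 57.97 and 69.9 CPM and 41.1 and 54.6 CPM. Other sums overlapped between tKO and control libraries. Those of thymic tuft cells were 659 and 764 CPM against 669.5 and 738.5 CPM, and those of ciliated cells 47.1 and 53.1 CPM against 47.1 and 73.9 CPM. Sums for neutrophils, cortical thymic epithelium, B cells, and thymocytes and leukocytes overlapped too. The part of any of these cell types in the mucin values was not tested.

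In Rbfox1 tKO immature mTEC, Muc5ac differed in the other direction, at 6.01 and 3.57 CPM in the tKO and 8.11 and 19.5 CPM in the control mice (log2 difference -1.52 ± 0.46, SE; edgeR, adjusted p = 0.687). Muc16 was at 1.85 and 8.16 CPM against 0 and 0.814 CPM (3.36 ± 1.02) and Reg3g at 209 and 456 CPM against 193 and 241 CPM (0.61 ± 0.26). Over both lines the lowest p were those of Muc16 (3.54 ± 0.76, adjusted p = 0.118), Muc5b (1.31 ± 0.29, adjusted p = 0.125) and Reg3g (0.77 ± 0.18, adjusted p = 0.180) in edgeR. Muc5b in the 4 tKO mice ranged from 33.8 to 101 CPM and in the 4 control mice from 9.39 to 39.9 CPM, so that the groups overlapped. It was called over both lines without Rbfox1 control replicate 3 (log2 difference 1.91), the control with the highest value.

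The difference between the effects of the 2 lines was tested directly. No member passed an adjusted p under 0.05 in edgeR, where 0.00555% of all genes did in mature and 0.00766% in immature mTEC. In the same test 6 of 47 and 4 of 24 members had an unadjusted p under 0.05, beside 4.66% and 4.43% of all genes. The member with the lowest p was Muc5ac in immature mTEC (Rbfox2 minus Rbfox1 log2 difference 4.05 ± 0.67, adjusted p = 0.108). The secretory machinery genes had no call over both lines in edgeR, with 50 tested in mature and 36 in immature mTEC. Of these 7 and 0 had an unadjusted p under 0.05 in edgeR, beside 4.49% and 7.47% of all genes.

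**Figure D5:**
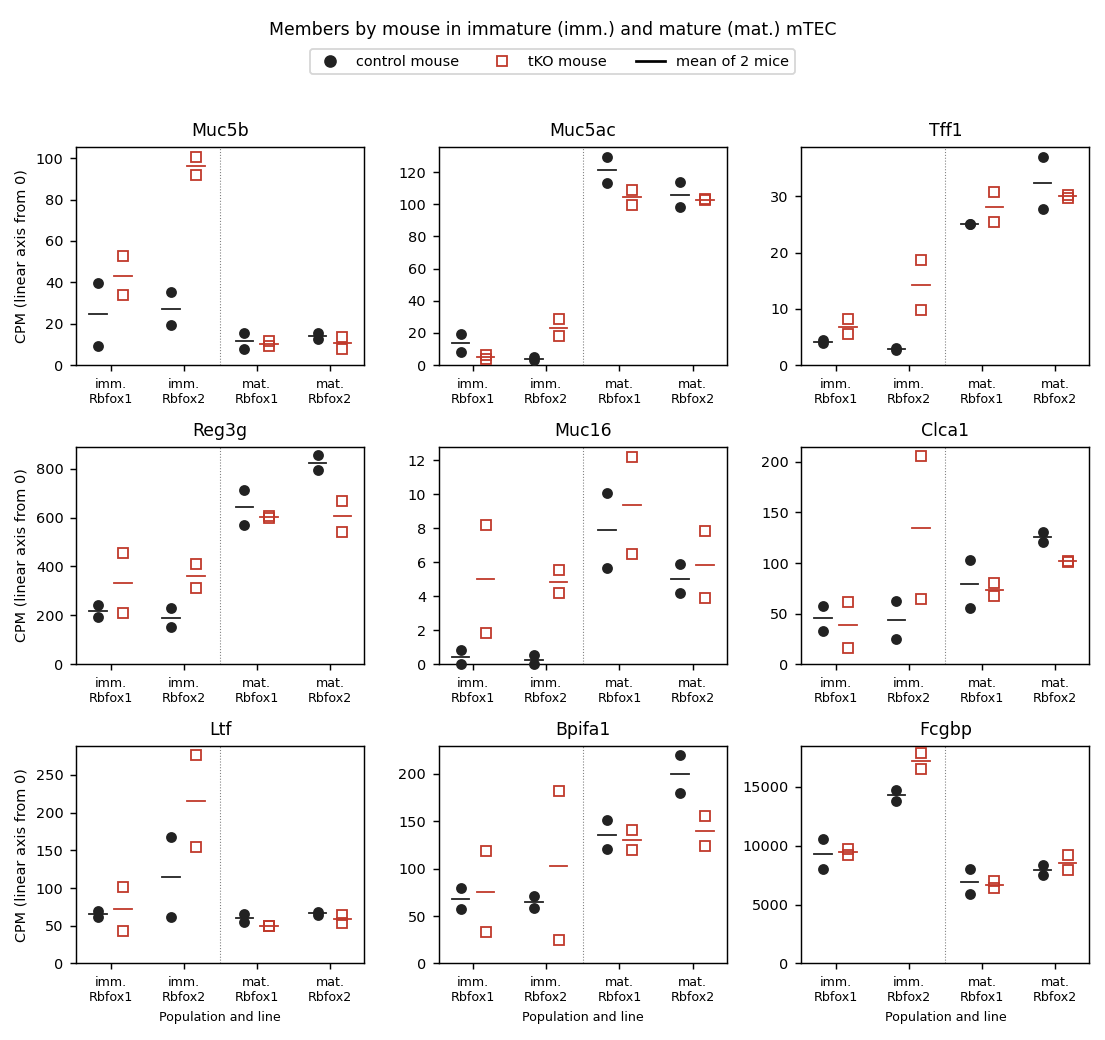
CPM of 9 members in each mouse, by population and line, for control (filled circles) and tKO mice (open squares), with the mean of 2 mice as a bar and a linear axis from 0. In Rbfox2-line immature mTEC, both tKO mice lie above both control mice for Muc5b (101 and 92.1 against 35.2 and 19.2), Muc5ac and Tff1, with Bpifa1, Clca1 and Ltf widely spread between mice.

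Over the 8 libraries of a population, which pool both lines and genotypes, ranges were wider in immature than in mature mTEC for several members. Clca1 ranged from 15.7 to 206 CPM over the 8 immature libraries and from 55.5 to 131 CPM over the mature ones. Bpifa1 ranged from 24.4 to 181 CPM and from 119 to 220 CPM, and Ltf from 42.6 to 277 CPM and from 49.5 to 68.8 CPM. The highest immature value of all 3 was that of Rbfox2 tKO replicate 2. These ranges hold differences between lines and genotypes as well as between mice. In the 4 control mice alone, Bpifa1 was less spread in immature (57.2 to 79.8 CPM) than in mature mTEC (120 to 220 CPM).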

How the data were processed

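The authors deposited raw counts of reads per gene for all 16 libraries in 1 table. HISAT2 2.1.0, Picard 2.10.9, featureCounts 1.6.0 and mm10 are listed in the submitters' processing notes, and the column names give down-sampling to 14500000 (mature) and 10000000 (immature). The sources used here do not give whether strand was used in counting. Symbols and exons came from GENCODE M21. Members and lists were chosen with earlier results of these data known. Replicates are separate mice. Counts were tested in edgeR 4.0.16 (R 4.3.3) by the quasi-likelihood test on all genes with TMM scaling, after filterByExpr (minimum count 10), with DESeq2 1.42.0 as an alternative. The tests were tried on simulated data first. Mature and immature libraries of a number come from 1 mouse, and their deviations correlated by 0.175 to 0.295. Thinning and sequence counts used Python 3.11.15 with numpy 2.4.6. Every member tested in the control maturation comparison could be named, and the 3 lowest p in each tKO comparison. Of the secretory machinery list, the 3 largest differences each way were named. Alternatives were other scalings and filters, lines taken alone, thinned counts, a replicate block, sex, and each library left out.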

Additional observations from a re-analysis of the deposited data

Results flagged for a closer look

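Within groups of 4 mice, 160 groups of values (40 members) were searched for 1 library far from the other 3, and 10 were found. Chance alone would flag about 1 in 20 groups of normally spread values. A group at 0 in 3 libraries and with a count in the other is always flagged, and groups without any spread are among the 160. That rate thus does not hold for members near 0. In control immature mTEC, Ltf was at 168 CPM and Tff3 at 19.2 CPM in Rbfox2 control replicate 2, against 61.2 to 70.0 CPM and 4.70 to 6.49 CPM in the others. Muc6 was at 1.22 CPM and Bpifb4, Bpifb5 and Reg3a at 0.407 CPM in Rbfox1 control replicate 3 and at 0 elsewhere, which are 1 to 3 counts. In tKO immature mTEC, Tff2 was at 18.9 CPM and Lyz1 at 39.1 CPM in Rbfox2 tKO replicate 1, against 0.510 to 2.08 CPM and 16.2 to 18.7 CPM, and Bpifb5 was at 0.925 CPM in Rbfox1 tKO replicate 2 and at 0 elsewhere. In control mature mTEC, Tff3 was lower in Rbfox1 control replicate 3, at 40.0 CPM against 49.1 to 50.7 CPM.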

How the results depend on the processing

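Of the 37 members called in control mice, 33 kept their call and direction under every alternative that tested them, the exceptions being Bpifa1, Clca1, Muc15 and Muc5b. Of the 33 called in tKO mice, 31 did, all but Tff2 and Ltf. Leaving out 1 mouse gave 35 to 39 calls in control and 33 in tKO mice, and the mouse as a replicate block 36 and 33. With 10 counts in every library 13 and 12 members were called, since only 16 were tested. Shares of all genes called in these fits are not given here. These counts thus show only how far the calls held. No filter moved the median of all genes to 1.25 and 1.18 on the log2 scale. Of the uncalled members in tKO mice, 3 changed sign: Agr2 (-0.52 in the Rbfox2 line, -0.0854 thinned, -0.26 to 0.315 with 1 mouse left out), Clca1 (-0.39 in the Rbfox2 line, -0.24 to 0.875 with 1 mouse left out) and Scgb3a2 (-0.851 to 0.0364 with 1 mouse left out). Reg3g in Rbfox1 tKO against control immature mTEC ranged from -0.0636 to 1.07 with 1 library left out. Tff2 was not called in the Rbfox2 line of tKO mice (0.65) or without Rbfox1 tKO replicate 3 (1.16).

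In mature mTEC no alternative called a member in tKO against control mice. In immature mTEC, no filter called 2 (Rbfox1), 6 (Rbfox2) and 3 (both lines). That setting lowered adjusted p at nearly the same estimate. Reg3g in Rbfox1 had 0.60 with an adjusted p of 0.00021, against 0.61 and 0.818 in the main edgeR fit. Sex as a covariate called 1 (Muc5b) for Rbfox2 and 1 (Muc5b) for both lines, and a replicate block by mouse number called 1 (Muc5b, 1.84) and 2 (Muc5b and Muc16). Leaving out 1 library gave 0 to 1 call for Rbfox1, 0 for Rbfox2 and 0 to 2 for both lines. Without Rbfox1 control replicate 3, Muc5b was called over both lines at 1.91, and without Rbfox1 tKO replicate 2, Muc5b and Muc16 were, at 1.51 and 3.99. Mice of a number within a line share their sex. The methods name sex-matched littermate controls, but no label ties a number to a litter, and the deviations of same-numbered mice correlated by 0.084 to 0.293. Shares of all genes called in these tKO fits are not given here either, and the cause of these changes was not tested. Members detected were 43.0 and 23.1 with a minimum of 5 counts, and 56.5 and 34.6 without thinning, in mature and immature mTEC. With 2 mice per genotype and line, and immature totals from 1506134 counts, 62 of 86 members were too low to test in immature mTEC.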
